A study of Mus musculus with 16 samples.

Results

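The host signaling partners of the polyoma middle T antigen were followed in mammary tumors of mice with and without a gene trap in *Resf1*. Middle T is a membrane-anchored viral protein with no catalytic activity of its own. The 10 genes, taken by name, encode the kinases SRC, YES and FYN, the adaptors SHC1 and GRB2, the regulatory and catalytic phosphatidylinositol 3-kinase (PI3K) subunits p85 alpha and p110 alpha, phospholipase C gamma 1, the PP2A scaffold subunit A alpha and the kinase AKT1. All 10 were found, each as a single entry, among the 23609 genes of the table, and all 10 passed the filter on low values.

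The tumors arose in females that carried the MMTV-PyMT transgene, which drives middle T from the mouse mammary tumor virus promoter in mammary epithelium. Control tumors came from *Resf1* wildtype MMTV-PyMT animals and genetrap tumors from their MMTV-PyMT/Resf1 +/- littermates, so that every tumor carries the oncogene. The trap is a lentiviral construct in the first exon of *Resf1* that expresses an EGFP-cre fusion, and the line was crossed to PyMT mice on FVB. The gene trap animals therefore keep an intact copy of *Resf1* in the germline and also express Cre. The age at collection is not given in the sources used here beyond a humane endpoint. Total RNA of the primary tumors was sequenced. Columns of 10 tumors, 5 from wildtype animals and 5 from gene trap animals, carry a label and were used.

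In cells that express it, middle T binds the PP2A core enzyme through the A subunit and recruits SRC, YES or FYN. Middle T is then phosphorylated on tyrosines that become docking sites. SHC1, and through it GRB2, links it to Ras and ERK, p85 links it to PI3K and AKT, and the remaining site binds phospholipase C gamma 1. These steps are protein complexes and phosphorylations. The data here are mRNA levels of the host partners, and the viral transcript was not analysed here.

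Levels are estimated counts that the authors had scaled between tumors by median ratio before deposit, called normalized values below. The depth of each library is unknown, and no interval that needs it is given. Column totals ran from 31995100 to 42153600. Gene trap replicate 2 stood apart from the others, with 36.6% of its total in the 20 most abundant genes against 21.2% to 29.0% in the other 9 tumors, and values without it are given beside those it moved. *Resf1* itself was at 4215, 4397, 3881, 4487 and 3517 in wildtype replicates 1 to 5 and at 4029, 3066, 3686, 3392 and 3409 in gene trap replicates 1 to 5. Its log2 fold change was -0.22 (standard error 0.091, limma unadjusted p = 0.0313, adjusted p = 0.9997), and -0.17 without gene trap replicate 2 (limma unadjusted p = 0.0684). The tumors are bulk tissue, in which fewer cells of a type and less RNA per cell cannot be told apart. All 8 mammary epithelial markers were present, and their summed value ran from 86500 to 113605 in wildtype and from 90692 to 120089 in gene trap tumors. The summed value of 6 basal and myoepithelial markers ran from 6333 to 8401 in wildtype and from 4893 to 6544 in gene trap tumors, and all 6 were lower on average in the latter, none with an adjusted p under 0.05 (limma). Of the fibroblast markers all 6 were higher on average in gene trap tumors, with sums of 39061 to 83926 in wildtype tumors. Gene trap replicate 1 had the highest fibroblast sum, 120046. Replicates 2 to 5 of that group had 62797, 63060, 61581 and 51724, all within the wildtype range. Whether the 6 averages stay higher without gene trap replicate 1 was not tested. Of the endothelial markers all 5 were lower on average in gene trap tumors, with sums of 2341 to 4377 in wildtype and 2126 to 3978 in gene trap tumors. The sums of both lists overlapped between the groups and no marker had an adjusted p under 0.05 (limma). The summed value of 4 skeletal muscle markers was 66344 in wildtype replicate 5 and between 4765 and 21527 in the other 9 tumors. Without that tumor the log2 fold change of *Resf1* was -0.28 (limma unadjusted p = 0.0100, adjusted p = 0.9999). That of *Fyn* was -0.20 (limma unadjusted p = 0.0523, adjusted p = 0.9999). The part of the markers in the values below was not tested.

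None of the 10 partner genes differed between gene trap and wildtype tumors beyond the spread between tumors. Genes were tested with limma on log2(value + 1) fitted over the 21034 genes whose mean over the tumors reached 10, with Benjamini-Hochberg adjustment over all of them, and differences are log2 fold changes of gene trap over wildtype. No member had an adjusted p under 0.05, and the same held for 0 of all tested genes (0%). At an unadjusted p under 0.05 there were 0 members, against 479 of all tested genes (2.28%). The groups overlapped for all 10 members, and 0.528% of all tested genes had groups that do not overlap. Of the members, 4 were higher and 6 were lower in gene trap tumors. Their median log2 fold change was -0.0055, and over all tested genes, of which 48.6% were lower, it was 0.0047.

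The size of change that these tumors leave possible is given by the intervals. Each 95% interval, taken gene by gene from the limma fit, included 0, and over the 10 genes the bounds ran from 0.781 fold (*Pik3r1*) to 1.27 fold (*Ppp2r1a*). The median standard error of the members was 0.096 on the log2 scale, against 0.098 over the tested genes with a mean between 500 and 30000.

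**Figure D1:**
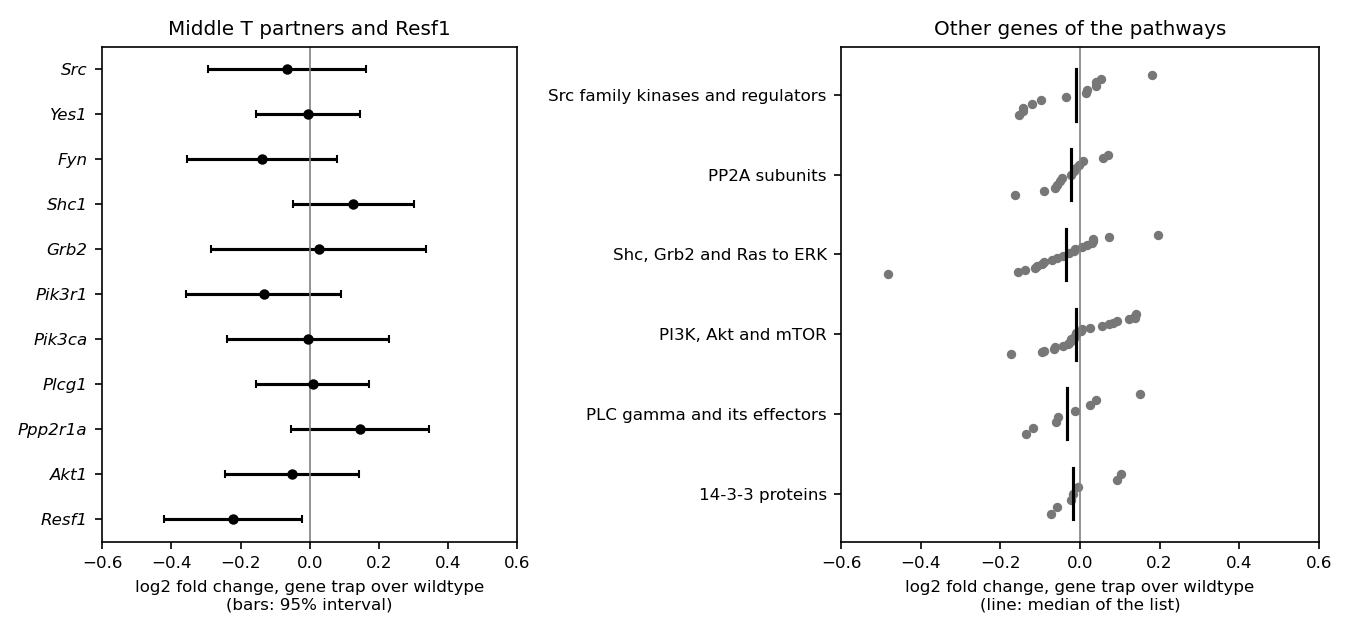
Log2 fold change of gene trap over wildtype tumors, with 95% intervals, for the 10 partner genes and *Resf1* (left), and for the other genes of the same pathways, with 1 point per gene and a line at the median of each list (right). All 10 partner intervals cross 0, and the point farthest from 0 among the other genes is *Gab3* at -0.48.

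Of the Src family kinases that middle T can recruit, *Src* and *Yes1* had the smaller differences and *Fyn* had a mean of 604 ± 64.7 in wildtype and 548 ± 48.4 in gene trap tumors (SD, n = 5 in each group). *Src*, the kinase whose activation by middle T is best known, was at 2566, 3261, 2897, 3146 and 2474 in wildtype replicates 1 to 5 and at 2419, 2548, 2860, 3314 and 2575 in gene trap replicates 1 to 5. The lowest and the highest tumor were both gene trap tumors. Its log2 fold change was -0.065 (standard error 0.11, limma adjusted p = 0.9997, 95% interval 0.815 to 1.12 fold), and it ranged from -0.14 to -0.017 when each tumor in turn was left out, with -0.041 without gene trap replicate 2.

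*Yes1*, which encodes the closely related kinase YES, was the steadiest member in wildtype tumors, at 2449, 2463, 2527, 2396 and 2630. In gene trap tumors it was at 2534, 2258, 2333, 2759 and 2557, so that 2 tumors lay below and 1 above all wildtype tumors. The SD was 89.8 in wildtype and 198 in gene trap tumors. Gene trap over wildtype came to -0.0057 on the log2 scale (standard error 0.069, 95% interval 0.897 to 1.11 fold) and to 0.028 without gene trap replicate 2.

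*Fyn*, a kinase also used in T cell and neuronal signaling, was at 588, 619, 645, 666 and 501 in wildtype tumors and at 492, 558, 616, 511 and 562 in gene trap tumors. Only gene trap replicate 1 lay below the lowest wildtype tumor. Its log2 fold change came to -0.14 (standard error 0.10, limma unadjusted p = 0.192, 95% interval 0.782 to 1.06 fold). The summed value of 5 T and NK cell markers was between 51.1 and 143 in wildtype and between 53.4 and 218 in gene trap tumors.

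The adaptors differed from each other in how much they varied. *Shc1*, whose product binds a phosphorylated tyrosine of middle T, was at 2555, 2812, 2707, 2868 and 2419 in wildtype tumors and at 2812, 3382, 2631, 2941 and 2842 in gene trap tumors. Replicates 2 and 4 of the gene trap group lay above all wildtype tumors, replicate 2 by the most. The difference was 0.13 on the log2 scale (standard error 0.080, limma unadjusted p = 0.140) and 0.072 without gene trap replicate 2.

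*Grb2*, which joins SHC1 to the Ras exchange factor SOS, was the most variable member, with a ratio of 1.73 between the highest and the lowest tumor. It was at 1247, 1591, 1229, 1757 and 1018 in wildtype tumors and at 1144, 1613, 1391, 1358 and 1368 in gene trap tumors. The lowest and the highest value both belonged to wildtype tumors. Its log2 fold change was 0.026 (standard error 0.14) and -0.034 without gene trap replicate 2.

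Both PI3K genes were at their lowest in gene trap replicate 2. *Pik3r1*, which encodes the regulatory subunit that docks on middle T, was at 22835, 28468, 25431, 30838 and 26415 in wildtype tumors and at 27970, 20929, 24695, 24571 and 23932 in gene trap tumors. Replicate 1 of the gene trap group lay above 3 of the 5 wildtype tumors, and replicate 2 below all of them. Over all 10 tumors the group difference was -0.13 on the log2 scale (standard error 0.10, limma unadjusted p = 0.221), and it was -0.079 without gene trap replicate 2.

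*Pik3ca*, the catalytic subunit p110 alpha, was at 3075, 2800, 2934, 3045 and 2851 in wildtype tumors, a coefficient of variation of 4.05%. In gene trap tumors it was at 3406, 2163, 3133, 3079 and 3030, a coefficient of variation of 15.9%. Gene trap replicate 2 was the lowest of all tumors, and 3 other gene trap tumors lay above every wildtype tumor. It differed by -0.0052 on the log2 scale (standard error 0.11) with all tumors and by 0.10 (standard error 0.060, limma unadjusted p = 0.112) without gene trap replicate 2. The sign also turned without wildtype replicate 1 (0.011) and without wildtype replicate 4 (0.0075).

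The remaining members were the lipase, the phosphatase scaffold and the kinase downstream of PI3K. *Plcg1*, phospholipase C gamma 1, was at 2896, 2691, 2612, 2846 and 2387 in wildtype and at 2677, 2464, 3000, 2714 and 2652 in gene trap tumors. Replicate 3 of the gene trap group was the highest of the 10 tumors and wildtype replicate 5 the lowest. Its log2 fold change of 0.0086 had a standard error of 0.075, and it was 0.041 without gene trap replicate 2. It was negative without gene trap replicate 3 (-0.030), wildtype replicate 5 (-0.033) or wildtype replicate 3 (-0.00068).

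*Ppp2r1a*, the PP2A A alpha scaffold that middle T binds directly, had the largest difference of the 10 genes in size with all tumors included, an order that did not hold when single tumors were left out. It was at 4275, 3458, 4204, 4874 and 3864 in wildtype and at 4262, 4699, 4800, 4815 and 4189 in gene trap tumors. All 5 gene trap tumors lay within the range of the wildtype tumors. The fit gave a log2 fold change of 0.15 (standard error 0.091, limma unadjusted p = 0.137, adjusted p = 0.9997). It was 0.21 without wildtype replicate 4 (limma unadjusted p = 0.0334, adjusted p = 0.9999) and 0.083 without wildtype replicate 2 (limma unadjusted p = 0.342, adjusted p = 0.9895), where *Shc1* at 0.15, *Fyn* at -0.13 and *Pik3r1* at -0.11 were larger in size.

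*Akt1*, the serine kinase activated by the lipid product of PI3K, was at 4000, 4968, 4627, 5130 and 4053 in wildtype and at 4107, 4389, 4117, 4958 and 4354 in gene trap tumors. The gene trap tumors lay within the wildtype range. On the log2 scale they differed by -0.051 (standard error 0.089, 95% interval 0.844 to 1.10 fold), and by -0.0062 without wildtype replicate 4.

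**Figure D2:**
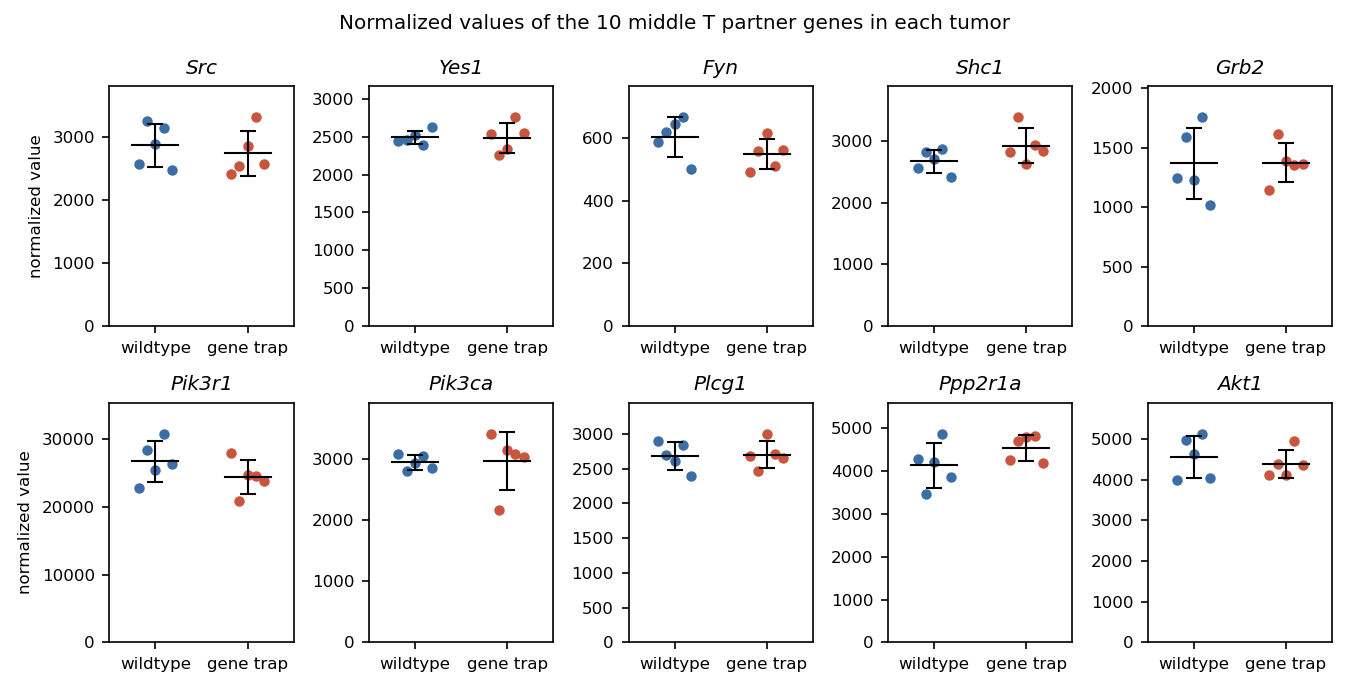
Normalized values of the 10 partner genes in the 5 wildtype (blue) and 5 gene trap (red) tumors, with 1 point per tumor in order of replicate number and bars for mean and SD. The groups overlap in all 10 panels, and gene trap replicate 2 is the low point of *Pik3ca* at 2163 and the high point of *Shc1* at 3382.

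Levels were compared between genes after division by the length of the longest protein-coding transcript in GENCODE release M21, in kb. This quantity depends on the transcript chosen, and *Pik3r1* also makes shorter transcripts from internal starts. *Pik3r1* was the most abundant partner, with a level per kb of 3767 ± 427 (SD, n = 5) in wildtype and 3433 ± 352 (SD, n = 5) in gene trap tumors, above every other member in 10 of 10 tumors. *Ppp2r1a* followed with 1716 ± 218 and 1889 ± 126, and *Akt1* with 1693 ± 192 and 1630 ± 129 (SD, n = 5 in each group). *Ppp2r1a* was above *Akt1* in 9 of 10 tumors.

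Below these came *Shc1* with a mean level per kb of 861 over the 10 tumors and *Src* with 718, each above the next gene in all 10 tumors. *Yes1* at 543, *Plcg1* at 528 and *Grb2* at 506 were not separated beyond their spread, since *Yes1* was above *Plcg1* in 7 tumors and *Plcg1* above *Grb2* in 7. *Pik3ca* had a mean level per kb of 331 and *Fyn*, the least abundant member, 162. *Pik3r1* lay at the 97.9th percentile of all genes with a known length and *Fyn* at the 56.5th.

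**Figure D3:**
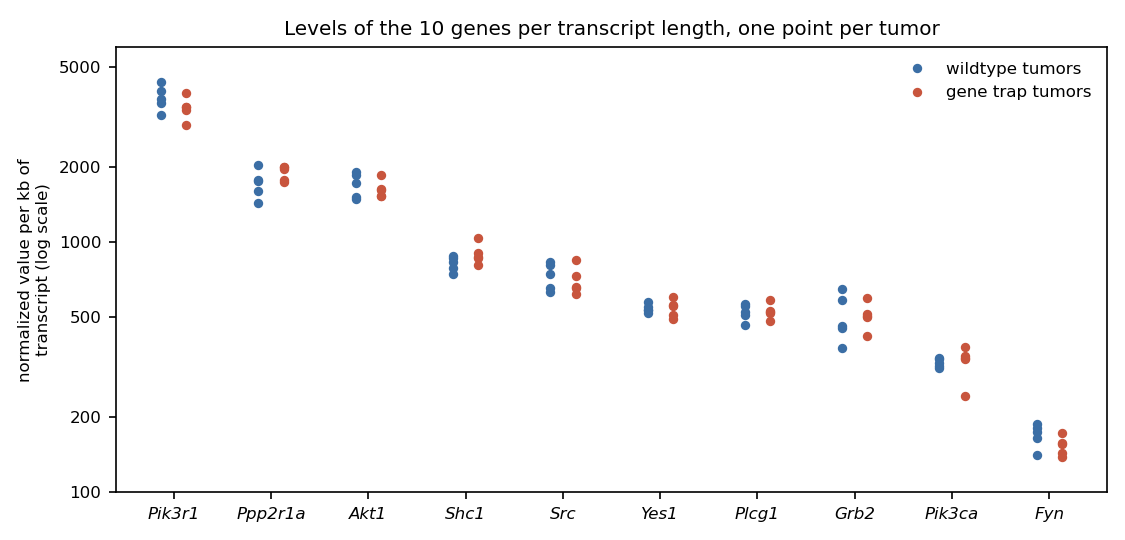
Normalized value per kb of transcript for the 10 genes, on a log axis, with 1 point for each wildtype (blue) and gene trap (red) tumor. *Pik3r1* lies above all other genes and *Fyn* below all others in every tumor, while *Yes1*, *Plcg1* and *Grb2* overlap.

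Each partner has paralogs that could serve the same step, and shares of a family's summed level per kb do not depend on how a tumor was scaled. Among the 7 Src family kinases in the table, *Src* held 29.6% to 37.7% in wildtype and 31.7% to 39.6% in gene trap tumors. *Yes1* held 23.8% to 26.9% and 24.4% to 28.3%, and *Fyn* 6.57% to 8.53% and 6.70% to 8.30%, respectively. *Lyn*, a kinase best known from blood cells, was more abundant per kb than *Fyn*, with 17.0% to 26.8% over the 10 tumors.

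The A alpha form of the PP2A scaffold prevailed over A beta. *Ppp2r1a* held 78.5% to 85.0% of their sum in wildtype and 81.2% to 86.3% in gene trap tumors. *Akt1* held 69.2% to 72.8% and 68.9% to 73.6% of the 3 Akt genes, with *Akt2* next at 18.5% to 21.6% over the 10 tumors. *Shc1* held 86.4% to 89.5% and 87.8% to 91.1% of the 4 Shc genes.

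*Pik3r1* held 80.2% to 84.7% of the 3 class IA regulatory subunit genes in wildtype and 75.9% to 85.4% in gene trap tumors. *Pik3ca* held 49.3% to 52.3% and 47.3% to 54.1% of *Pik3ca*, *Pik3cb* and *Pik3cd*. Summed per kb, transcripts of regulatory subunits exceeded those of catalytic subunits by a ratio of 7.07 ± 0.686 in wildtype and 6.61 ± 0.573 in gene trap tumors (SD, n = 5 in each group). The gamma form of phospholipase C was the exception, since *Plcg1* was the minority gene with 37.2% to 47.6% in wildtype and 40.9% to 43.4% in gene trap tumors, against *Plcg2*. In all of these shares the ranges of the groups overlapped.

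**Figure D4:**
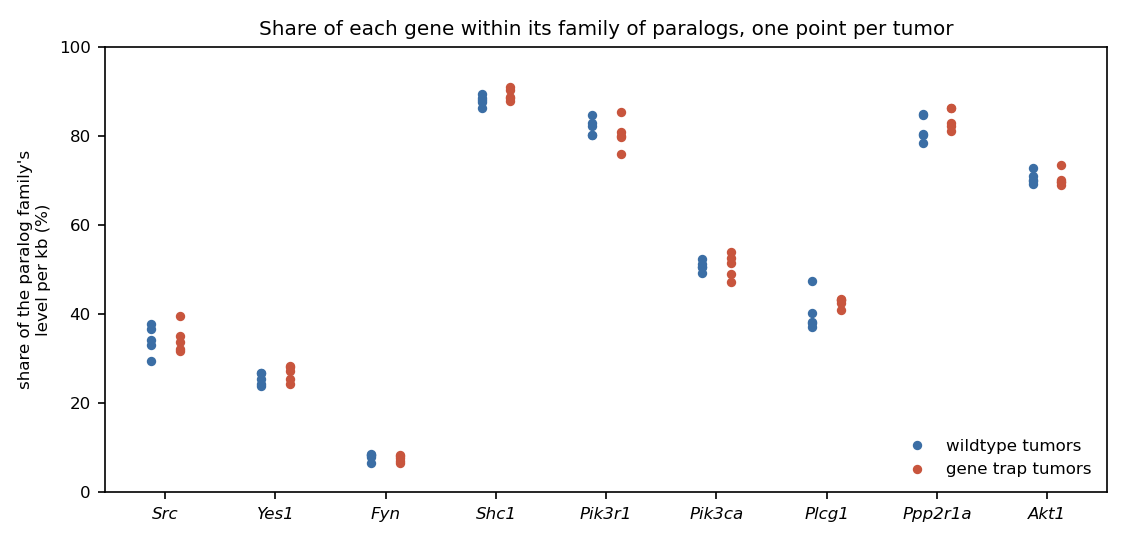
Share in percent that each gene holds of the summed level per kb of its paralog family, with 1 point per wildtype (blue) and gene trap (red) tumor. *Shc1*, *Pik3r1*, *Ppp2r1a* and *Akt1* each hold most of their family in every tumor, *Plcg1* reaches at most 47.6%, and the groups overlap for all 9 genes.

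The promoters of the members were also searched, because RESF1 has been studied for its association with G-quadruplexes, structures that stacked runs of G can form. The authors propose that RESF1 is mainly associated with transcribed sequences rather than with control elements. Their strongest sites were enriched for predicted quadruplexes of shorter G runs than those searched here. The promoter search therefore does not address that association. RefSeq start sites on GRCm38.p6 gave 14 windows for the 10 genes, each from 250 bases before to 50 bases after a start. Of the 10 genes, 5 (*Src*, *Yes1*, *Akt1*, *Pik3r1* and *Ppp2r1a*) held at least 4 runs of GGG separated by 1 to 7 bases, on either strand. Over all 32851 windows of this length in the table, 18.6% held the pattern, and so did a window of 20.4% of genes. The GC content of the member windows ran from 43.7% to 82.3%, against a median of 52.7% over all windows. The comparison was not matched for GC content. Matches of at most 30 bases that lie fully upstream of a start, and so show the spacing of the runs in a short stretch, are given here, 5′ to 3′, with the runs of G in capitals.
Src, chr2:157424217-157424243, minus strand, opposite to the gene: GGGGGaGGGagcgcgcGGGaggaGGGG
Akt1, chr12:112674913-112674935, minus strand, as the gene: GGGcttctGGGacgaGGGaGGGG
Pik3r1, chr13:101768273-101768297, minus strand, as the gene: GGGcgctGGGGGGcGGGGtctcGGG
The 5 members with the pattern had log2 fold changes from -0.13 to 0.15 and the 5 without it from -0.14 to 0.13. A match of letters is not evidence that the structure forms or that RESF1 is present there.

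Relations between members from tumor to tumor were examined within genotypes. Each gene's log2 values were centred on the mean of its group and correlated over the 10 tumors for the 45 pairs of members, with 2-sided permutation tests of 100000 resamples. The resamples shuffled the centred values over all 10 tumors and not within genotypes, and did not allow for the group means removed. These p-values, and those for the GC trend below, may therefore be too small. The closest pair was *Src* and *Akt1*, with Pearson r = 0.86 (permutation p = 0.00184, adjusted over the 45 pairs 0.0828) and Spearman rho = 0.87 (permutation p = 0.0023, adjusted 0.103). Without the 2 tumors farthest from the median of *Src*, r was 0.76. No pair had an adjusted p under 0.05, and 6 had an unadjusted p under 0.05 for r. Of these, *Shc1* and *Pik3ca* were the pair with opposite signs, r = -0.68, and r was -0.22 without gene trap replicate 2. The share among pairs of other genes was not computed, so the count of 6 does not set the members apart.

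The tumors also differed in a trend with GC content. For each tumor, the deviation of 20536 genes from their mean over tumors was correlated with the GC content of the transcript. This correlation is across genes, which are not independent replicates. It was lowest in gene trap replicate 1 (rho = -0.36), followed by replicates 5 (-0.28) and 1 (-0.26) of the wildtype group. The highest were wildtype replicate 2 (0.26), gene trap replicate 2 (0.21) and wildtype replicate 4 (0.19), so both genotypes were found at both ends.

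Of the 10 members, 4 had an adjusted p under 0.05 for a relation with this trend over the 10 tumors (permutation test). The share of all tested genes with such a relation was not computed, so the count does not set the members apart. For *Grb2* r was 0.84 (permutation p = 0.00228, adjusted over the 10 relations 0.0228) and rho 0.82 (permutation p = 0.00584, adjusted 0.0285), and for *Akt1* r was 0.82 (permutation p = 0.00547, adjusted 0.0273) and rho 0.79 (permutation p = 0.00854, adjusted 0.0285). For *Src* r was 0.76 (permutation p = 0.0150, adjusted 0.0374) and rho 0.75 (permutation p = 0.0177, adjusted 0.0442), and for *Shc1* r was 0.75 (permutation p = 0.0125, adjusted 0.0374) and rho 0.79 (permutation p = 0.00854, adjusted 0.0285). Without the 2 tumors farthest from the median of the gene, r stayed between 0.74 and 0.89 in these 4 genes. Without gene trap replicate 2 r was 0.92 in *Src*, 0.88 in *Akt1*, 0.82 in *Grb2* and 0.72 in *Shc1*. Transcript GC content was 59.3% in *Src*, 59.7% in *Akt1*, 53.2% in *Shc1* and 51.9% in *Grb2*. *Plcg1* and *Ppp2r1a*, with 54.1% and 54.8%, had r of 0.05 and 0.20, so members of similar GC content did not share the relation. *Fyn*, with 49.3%, had r = 0.63 (permutation p = 0.0494, adjusted 0.0989), which was 0.18 without the 2 tumors farthest from its median. *Yes1*, with 41.1%, had r = -0.33 (permutation p = 0.355, adjusted 0.507), and *Pik3ca*, with 41.2%, had r = -0.53 (permutation p = 0.103, adjusted 0.172). Without the 2 tumors farthest from the median of the gene, r was -0.50 in *Yes1* and -0.09 in *Pik3ca*.

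After the trend with GC content had been removed from each tumor, r between *Src* and *Akt1* was 0.81, while r between *Grb2* and *Akt1* went from 0.71 to -0.09 and that between *Src* and *Grb2* from 0.60 to 0.02. Other pairs moved the opposite way, with r from -0.11 to 0.78 between *Pik3ca* and *Akt1*, from 0.08 to 0.82 between *Src* and *Pik3ca*, from 0.12 to 0.67 between *Yes1* and *Akt1* and from 0.15 to 0.66 between *Src* and *Yes1*, while *Fyn* and *Grb2* stayed at 0.72 and 0.74. The order of the pairs thus depended on the correction, and none of these corrected values was tested. With this correction, chosen after the data were seen, the log2 fold change went from -0.051 to -0.075 in *Akt1* and from -0.065 to -0.087 in *Src*, and moved by less in the other 8 members.

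**Figure D5:**
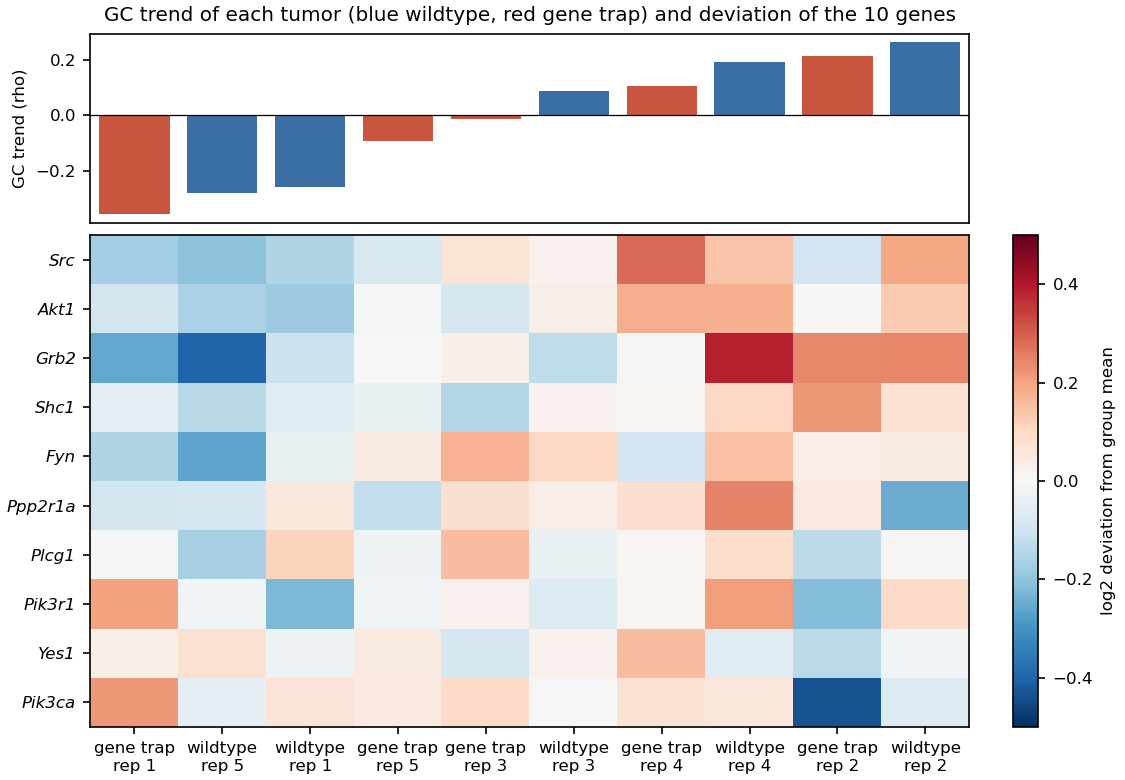
Trend of each tumor with transcript GC content (top, Spearman rho across 20536 genes, blue for wildtype and red for gene trap) and log2 deviation of each of the 10 genes from its group mean (bottom), with tumors in order of the trend. *Grb2*, *Akt1*, *Src* and *Shc1* tend from negative to positive deviations along this order, though *Src* is below its group mean in gene trap replicate 2. *Pik3ca* in gene trap replicate 2 is the lowest cell.

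The tested gene most like each member over the 10 tumors, among 14121 others with a mean of at least 100, is given as a description, since the highest of so many correlations over 10 points is always large. For *Src* it was *Nomo1* (r = 0.96), for *Fyn* *Zfp609* (0.94), for *Shc1* *Slc4a2* (0.98) and for *Grb2* *Cep131* (0.98). For *Pik3r1* it was *Fam102b* (0.93), for *Plcg1* *Mtmr3* (0.94) and for *Ppp2r1a* *BC021767* (0.93). For *Akt1* it was *Ywhag* (0.97), a 14-3-3 gene. For *Yes1* and *Pik3ca* it was the gene models *Gm6877* (0.96) and *Gm8141* (0.99). After removal of the GC trend r was 0.49 for *Akt1*, 0.62 for *Shc1* and 0.69 for *Yes1* with the same genes, and between 0.87 and 0.95 for the other 7 members.

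The wider pathways around the partners gave no called gene either. Of 89 further genes listed by role, 87 were in the table and 85 were tested. None was called in either direction at an adjusted p under 0.05 (limma), and 1, *Gab3*, had an unadjusted p under 0.05 (85 tested, against 2.28% of all tested genes). Of the 85 genes, 32 were higher and 53 lower, and their median difference was -0.016 on the log2 scale.

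*Gab3*, a docking protein of the GRB2-associated family that is expressed mainly in blood cells, was at 49.5, 44.8, 53.7, 48.4 and 56.1 in wildtype and at 37.9, 35.4, 46.0, 28.9 and 32.7 in gene trap tumors. Of the gene trap tumors, replicate 3 lay within the wildtype range and the other 4 below it. It had a log2 fold change of -0.48 (standard error 0.18, limma unadjusted p = 0.0176, adjusted p = 0.9997). The summed value of 5 macrophage markers was between 6213 and 9804 in wildtype and between 6352 and 8822 in gene trap tumors, and 4 of the 5 were lower on average in gene trap tumors. Their part in the value of *Gab3* was not tested.

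Among 12 further Src family kinases and regulators, 6 were higher and 6 lower. *Frk*, a relative of SRC, had the smallest p, with a difference of -0.12 on the log2 scale (standard error 0.071, limma unadjusted p = 0.112), and the focal adhesion kinase gene *Ptk2*, which had the highest mean value over the 10 tumors, differed by -0.035 (standard error 0.097) and by 0.030 without gene trap replicate 2. Among 13 PP2A genes, 3 were higher and 10 lower, with *Ppp2ca*, the main catalytic subunit, at a log2 fold change of -0.0090 (standard error 0.080) and the regulatory subunit gene *Ppp2r5c* at -0.091 (standard error 0.070). Without gene trap replicate 2 these were 0.034 and -0.042.

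Of 20 genes between Shc, Ras and ERK, 7 were higher and 13 lower. *Nf1*, which encodes a Ras GTPase-activating protein, had the highest mean value among them, with 8251 ± 945 in wildtype and 8421 ± 811 in gene trap tumors (SD, n = 5 in each group), a log2 fold change of 0.031 that was 0.053 without gene trap replicate 2. Of 25 genes of PI3K, Akt and mTOR signaling, 11 were higher and 14 lower, with *Rps6kb1*, the S6 kinase, at a log2 fold change of 0.14 (standard error 0.079, limma unadjusted p = 0.103) and *Foxo3*, a transcription factor that AKT phosphorylates, at -0.013 (standard error 0.13), which was 0.014 without gene trap replicate 2.

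Of 8 genes around phospholipase C gamma, 3 were higher and 5 lower, with *Plcg2* at a log2 fold change of -0.13 (standard error 0.094) and the IP3 receptor gene *Itpr1* at -0.12 (standard error 0.10), or -0.080 without gene trap replicate 2. Of the 7 genes for 14-3-3 proteins, which also bind middle T, 2 were higher and 5 lower. *Ywhaz* was at 9350 ± 789 in wildtype and 10108 ± 1555 in gene trap tumors (SD, n = 5 in each group), a log2 fold change of 0.10 (standard error 0.10) that was 0.023 without gene trap replicate 2.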

How the data were processed

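RNA-seq of primary mammary tumors (total RNA, TruSeq Stranded Total RNA libraries) was used as deposited. The submitters' processing notes name Partek, STAR 2.7.8a, DESeq2 and the mm39 build, with no role for each. The counter and annotation are not given in the sources used here. The authors deposited a signal per gene, estimated counts normalized by median ratio, which are fractional, with none at 0, and whole reads were not recovered from them. Of 16 columns, 10 were matched to a labelled tumor by name and 6 were not used. Symbols were found for 22899 of 23609 gene IDs.

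Values were taken as log2(value + 1), and the 21034 genes with a mean of at least 10 entered a limma fit (limma 3.58.1 in R 4.3.3) that held genotype alone, used a mean-variance trend and adjusted p-values by Benjamini-Hochberg. This fit was tested on simulated data. Transcript length and GC content came from GENCODE M21 (GRCm38) by gene ID, and no coordinates were carried between builds. Relations between genes were computed in Python 3.11.15 with SciPy 1.17.1, and figures drawn with matplotlib 3.10.9.

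The 10 genes and the lists were chosen with earlier results of these data known. Genes named outside the 10 are *Resf1*, the most abundant gene and the gene with the smallest p of each pathway list, any with an unadjusted p under 0.05, and the gene most like each member. *Lyn*, *Akt2* and other paralogs were added as family members. Tumors of the same replicate number are not paired by the labels, and since nothing says that tumors came from separate animals, p-values measure the spread between these samples. The alternatives were the replicate block, each tumor left out, other pseudocounts, filters and scalings, no variance trend, a weight per tumor and, chosen after the data were seen, a GC correction (lowess, span 0.3).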

Additional observations from a re-analysis of the deposited data

Results flagged for a closer look

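In 44 groups of 5 tumors, from the 10 partner genes, *Resf1* and the named genes of the pathway lists, 1 value lay far from the others of its group, where chance gives about 1 in 20 groups, or 2.2 here. *Plcg2*, the second phospholipase C gamma, had 3403 in replicate 3 of the gene trap group, while the remaining 4 tumors of that group lay between 2931 and 3010.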

How the results depend on the processing

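Of the 20 alternative fits, 0 called any gene at an adjusted p under 0.05, and the lowest adjusted p of any gene was 0.9786 (limma). At an unadjusted p under 0.05 they gave 307 to 694 genes, 0 or 1 members and 0 to 2 other pathway genes. The median log2 fold change of the members lay between -0.054 and 0.00064 when each tumor was left out and between -0.016 and -0.0054 otherwise. The replicate block, the filters and the variance trend leave a fold change as it is by construction and bear only on its p. In the other fits *Resf1* lay between -0.28 and -0.17 with a tumor left out and between -0.23 and -0.18 otherwise. Of the 10 members, 6 kept their direction but not their size: with a tumor left out, the log2 fold change ranged from -0.14 to -0.017 in *Src*, from -0.20 to -0.10 in *Fyn*, from 0.072 to 0.16 in *Shc1*, from -0.19 to -0.079 in *Pik3r1*, from 0.083 to 0.21 in *Ppp2r1a* and from -0.096 to -0.0062 in *Akt1*.

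The direction of genes near 0 changed. With a weight per tumor the log2 fold change was -0.034 in *Grb2*, 0.081 in *Pik3ca*, 0.013 in *Yes1*, 0.022 in *Ppp2ca* and 0.018 in *Ptk2*, and with upper quartile rescaling it was -0.0016 in *Plcg1*. With each tumor left out it ranged from -0.074 to 0.12 in *Grb2*, from -0.060 to 0.10 in *Pik3ca*, from -0.033 to 0.041 in *Plcg1*, from -0.044 to 0.028 in *Yes1*, from -0.084 to 0.090 in *Foxo3*, from -0.061 to 0.034 in *Ppp2ca*, from -0.084 to 0.030 in *Ptk2* and from -0.0075 to 0.097 in *Nf1*. The cause was not tested. *Gab3* was between -0.57 and -0.40 in all fits that tested it, and a filter on a mean of at least 50 removed it.

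Deviations of tumors with the same replicate number had correlations from -0.16 to 0.15 over the 5 pairs. Tumors of different numbers were not compared in this way, so these values cannot settle whether the numbers carry a pairing. With the replicate number as a block 0 genes were called. Since each number occurs once in each group, the block cannot move a fold change (-0.22 in *Resf1* with and without it). The depth of the libraries is unknown, so the counting part of the spread cannot be given.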
